A study of Mus musculus with 24 samples.

Results

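The regions described here are 827 active enhancers of mouse liver that carried a Myc peak after Myc induction but no TEAD peak in wild-type liver. They were taken from the 21671 regions of histone H3 monomethylated at lysine 4 (H3K4me1) in wild-type liver. A region was kept where it overlapped, by at least 1 bp, a wild-type region of H3 acetylated at lysine 27 (H3K27ac) and a Myc peak of tet-Myc liver, and overlapped neither a wild-type region of H3 trimethylated at lysine 4 (H3K4me3) nor a wild-type TEAD peak. The H3K27ac and H3K4me3 conditions left 5956 active enhancers, of which these were 13.9%. A tet-Myc Myc peak was in 58.1% of the 5956 and a wild-type TEAD peak in 64.0%. The other active enhancers fell into 2636 with both wild-type TEAD and tet-Myc Myc, 1178 with TEAD and no Myc, and 1315 with neither. The regions were thus chosen by measured values, namely overlap with the wild-type H3K4me1, H3K27ac, H3K4me3 and TEAD lists and the tet-Myc Myc list, and those values are given below as a description only. The absence of TEAD held for the wild-type list alone, since 667 of the 827 overlapped a TEAD peak of at least 1 transgenic liver, so the regions are called here Myc enhancers without wild-type TEAD.

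The peak lists came from whole livers of mice that all carried R26-rtTA, a doxycycline-dependent transactivator expressed from the broadly active Rosa26 locus and so not restricted to hepatocytes. All were fed doxycycline for 2 days. Wild-type mice carried no further transgene, tet-Myc mice an inducible Myc, tet-YAP mice an inducible YAP (Col1A1-YAP S127A, a form that escapes Hippo control), and tet-Myc/YAP mice both. Chromatin immunoprecipitation with sequencing (ChIP-seq) was done once for each antibody and genotype. There were therefore no replicates, no test between genotypes or classes could be made, and the 95% Wilson intervals given in brackets cover counting over regions only. The sources used here do not give the age or sex of the animals, or say whether livers were pooled. The liver identity of the chromatin was not checked against marker genes, because no gene annotation of the files' build, mm9, was used.

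Enhancers are regulatory elements away from promoters. H3K4me1 marks them, H3K27ac is added where they are active, and H3K4me3 is the usual mark of promoters instead. Myc is a transcription factor that binds DNA with its partner Max, mostly at E-box sequences, and at high levels it occupies promoters and active enhancers widely. TEAD proteins bind their own motif and serve as the DNA anchor of YAP, the coactivator that the Hippo pathway keeps out of the nucleus. RNA polymerase II (Pol II) transcribes genes and is also found at active enhancers. In bulk chromatin, a factor bound in fewer cells and a factor bound more weakly in each cell cannot be told apart.

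The regions had a median width of 4389 bp, with a middle range (lower to upper quartile) of 2844 to 7176 bp. They were narrower than the regions with TEAD and Myc, whose median was 5830 bp, and like those with TEAD and no Myc, at 4380 bp. Their median distance to a wild-type H3K4me3 region was 20090 bp, and 6 of them lay within 2000 bp of one. A single tet-Myc Myc peak was present in 709 of them (85.7%), 2 peaks in 101 (12.2%) and 3 or more in 17 (2.06%). The wider regions with TEAD and Myc had 72.5%, 19.3% and 8.19%. The strongest Myc summit sat in the central 50% of the region in 69.0% of them, close to the 69.3% of regions with TEAD and Myc. The wild-type H3K27ac domain over the region reached a wild-type H3K4me3 region elsewhere in 179 (21.6%, 19.0 to 24.6), against 21.1% of all active enhancers.

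Near the limits of the rule, the nearest wild-type TEAD peak was at least 1622 bp from every one of these regions, with a median of 13290 bp, and 127 had one within 5000 bp. On the other side of that limit, 651 of the 2636 regions with TEAD and Myc had no wild-type TEAD peak with a −log10 q of 10 or more, and the lowest fold enrichment of a strongest TEAD peak was 2.27. The strongest tet-Myc Myc peak ranged from 2.7- to 35.7-fold enrichment over control among the Myc enhancers without wild-type TEAD, and was under a −log10 q of 10 in 212. In the regions with neither factor, the nearest tet-Myc Myc peak was at least 2046 bp away. Wild-type H3K27ac covered as little as 9.99% of a region and less than 50% of 29.

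Some libraries stood apart. The peak caller estimated a fragment of 51 bp for Myc in wild-type and of 56 bp for YAP in tet-YAP, against 287 to 364 bp in the other 12 lists of narrow peaks, and the peaks of those 2 lists were narrow (medians of 81 and 98 bp). The rule used neither list, and the combinations of Myc lists are given with and without wild-type Myc. TEAD libraries were close in depth, at 31.6 to 33.1 M tags, while Pol II libraries ran from 20.9 M in wild-type to 50.6 M in tet-Myc.

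Myc was listed again in most of these regions when YAP was induced along with it, though not among the strongest peaks alone. In tet-Myc/YAP liver 573 of the 827 regions had a Myc peak (69.3%, 66.1 to 72.3), where 51.3% of all active enhancers had one. Of the regions with TEAD and Myc, 82.1% (80.5 to 83.5) did, which became 81.1% when they were weighted to the widths of the regions without TEAD and 77.4% when weighted to their tet-Myc Myc strength. With that list shortened to the 13227 peaks of the tet-YAP list, the shares were 22.0% (182 of 827) and 37.5%. In tet-YAP liver, where the Myc transgene was absent, 104 had a Myc peak (12.6%, 10.5 to 15.0), against a background of 15.3% and 27.6% of the regions with TEAD and Myc. In wild-type liver 6 had a Myc peak (0.726%), against a background of 1.95%.

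By combination, 474 regions (57.3%) had Myc in tet-Myc/YAP but in neither wild-type nor tet-YAP, 95 (11.5%) had it in tet-Myc/YAP and tet-YAP, and 245 (29.6%) had it in tet-Myc liver only. The regions with TEAD and Myc had 54.6%, 24.3% and 16.3%, so that the classes were close in the first combination. Without the wild-type list, these groups held 476, 97 and 247 of the 827. Where a region had Myc in both tet-Myc and tet-Myc/YAP, the fold enrichment of the strongest peak was higher in tet-Myc/YAP in 341 of 573 (59.5%), with medians of 8.5 and 9.25, against 65.4% of the regions with TEAD and Myc. Of the 97 regions with Myc in tet-Myc/YAP as well as tet-YAP, 93 (95.9%) were higher in tet-Myc/YAP, with a median of 12.4 against 5.5, as were 677 of 691 in the regions with TEAD and Myc. The lists as wholes differed in the same direction, with medians over all peaks of 8.23 in tet-Myc, 10.4 in tet-Myc/YAP and 6.13 in tet-YAP. Higher values in tet-Myc/YAP were thus not particular to these regions.

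The Myc peaks in tet-Myc/YAP had a median fold enrichment of 9.25 (middle range 7.24 to 12.8, n = 573), below the median of 10.4 of all 30327 peaks of that list and below the 10.7 of the regions with TEAD and Myc (n = 2163). The middle ranges of both classes overlapped over most of their length. Ranked by −log10 q, the leading Myc peak of tet-Myc/YAP lay in chr12:84428638-84430950, with 49.0-fold enrichment, 17.2-fold in tet-Myc, 6.56-fold in tet-YAP and no peak in wild-type. The only TEAD peak of that region was in tet-Myc/YAP, at 6.19-fold, and no Pol II peak was listed there in any genotype. In a region of 1700 bp on chromosome 18, Myc reached 38.1-fold in tet-Myc/YAP, 35.7-fold in tet-Myc and 12.03-fold in tet-YAP.

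The next regions by that rank were chr13:37847799-37856630, with Myc at 36.1-fold in tet-Myc/YAP and 17.7-fold in tet-Myc, chr13:25064665-25086922, at 30.8- and 22.4-fold, and chr11:84702678-84704204, at 30.5- and 28.0-fold. All 5 leading regions also held Myc in tet-YAP, and TEAD in tet-Myc/YAP at between 3.63- and 8.9-fold. Myc in tet-Myc was required by the rule, and Myc in tet-Myc/YAP set the rank. Of all 827 regions, 12.6% had Myc in tet-YAP and 72.6% had TEAD in tet-Myc/YAP. In the strongest of the 4 groups by tet-Myc Myc fold enrichment, described below, these shares were 27.1% and 84.3%. Among regions where Myc was listed in tet-Myc but not in tet-Myc/YAP, the strongest were chr11:57767987-57770979, chr15:96932667-96936953 and chr4:151585464-151588764, at 11.1-, 10.5- and 10.02-fold in tet-Myc. Of these, the region on chromosome 15 had no TEAD, YAP or Pol II peak in any list, and its H3K27ac was listed in wild-type and tet-Myc only. The 3 leading regions that also had wild-type Myc were chr7:108231389-108238171, chr5:122014187-122023743 and chr6:146216443-146220884, where the wild-type peaks had −log10 q values of only 2.09, 2.09 and 4.29.

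**Figure D1:**
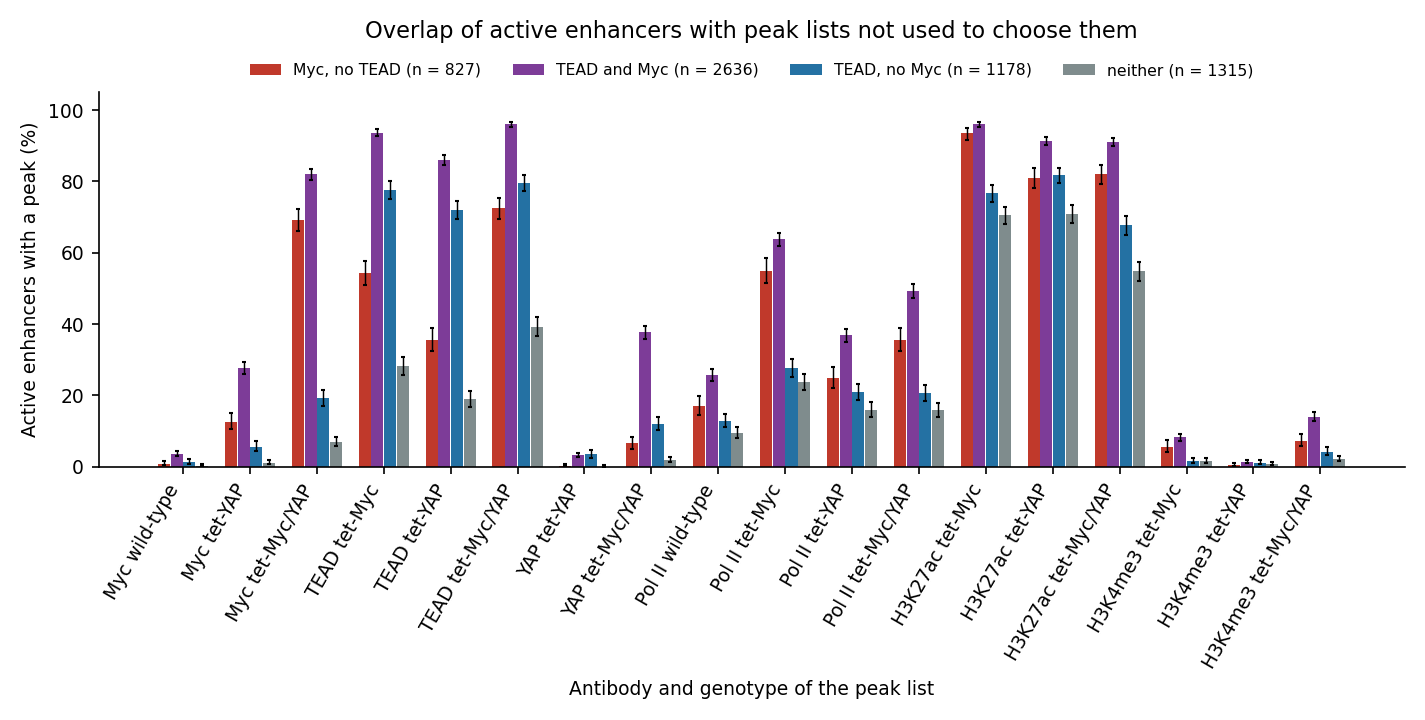
Share of active enhancers (%, y axis) that overlapped a peak or broad region of each list (x axis, antibody and genotype), for the 4 classes set by wild-type TEAD and tet-Myc Myc. Bars are shares and error bars Wilson 95% intervals over regions, with 1 library per list. Myc enhancers without wild-type TEAD (red) had TEAD peaks in 35.6% to 72.6% of cases in transgenic liver, between the regions with neither factor (grey) and the 2 classes with wild-type TEAD.

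TEAD was listed in most of these regions in at least 1 transgenic liver. In tet-Myc liver 449 had a TEAD peak (54.3%, 50.9 to 57.7), against a background of 70.6% of active enhancers, and in tet-Myc/YAP 600 did (72.6%, 69.4 to 75.5), against a background of 77.0%. In tet-YAP liver 294 did (35.6%, 32.4 to 38.9), against 61.4%. The class that matches them in having no wild-type TEAD, the regions with neither factor, had TEAD in 28.2%, 39.3% and 18.9%, in the same order of genotypes, so that regions with tet-Myc Myc had TEAD more often in each of the 3 transgenic livers, tet-YAP included. The intervals of the classes did not overlap. Weighted to the widths of the Myc enhancers without wild-type TEAD, the shares of the regions with neither factor were 29.3%, 40.6% and 19.2%. The classes also differed in their rank by wild-type H3K4me1 score among all H3K4me1 regions, for which the shares were not weighted. The median percentile was 48.04 in the Myc enhancers without wild-type TEAD and 30.76 in the regions with neither factor. It was 65.63 in the regions with TEAD and Myc. The part of H3K4me1 score in the difference in TEAD was not tested.

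The TEAD lists differed in length, with 52392 peaks in tet-Myc/YAP, 44220 in tet-Myc, 33417 in wild-type and 32486 in tet-YAP. When each transgenic list was shortened to its 32486 strongest peaks, the shares of these regions with TEAD were 41.4% in tet-Myc/YAP, 34.7% in tet-Myc and 35.6% in tet-YAP. At equal length, tet-Myc and tet-YAP thus stood at nearly the same share, while the regions with neither factor, at 17.9%, 16% and 18.9%, stayed below in each. The part of list length in the differences between genotypes was not tested.

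TEAD was in all 3 transgenic livers in 220 regions (26.6%, 23.7 to 29.7), against a background of 53.8% of active enhancers and 82.2% of the regions with TEAD and Myc. Both of those include regions with wild-type TEAD, and the regions with neither factor had 9.05% (7.62 to 10.7). A further 181 (21.9%) had it in tet-Myc and tet-Myc/YAP, 154 (18.6%) in tet-Myc/YAP only and 45 (5.44%) in tet-Myc/YAP and tet-YAP. It was in tet-Myc only in 38 (4.59%), in tet-YAP only in 19 (2.3%) and in both single transgenics in 10 (1.21%). In the same order, the regions with TEAD and Myc had 9.67%, 1.93%, 2.16%, 1.02%, 0.873% and 0.759%. In 160 (19.3%) no TEAD peak was listed in any of the 4 genotypes. The share with TEAD in at least 1 transgenic liver was 80.7% (77.8 to 83.2), against a background of 83.8% and 49.7% of the regions with neither factor.

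The TEAD peaks were weak for their lists. Median fold enrichment was 7.19 in tet-Myc/YAP, 6.2 in tet-Myc and 5.5 in tet-YAP, below the medians of all peaks of those lists (7.79, 7.02 and 6.28) and below those of regions with TEAD and Myc (12.8, 9.5 and 7.56). The regions with neither factor, which also lacked wild-type TEAD, had lower medians still, at 6.39, 5.86 and 5.38. The rule required the lack of a wild-type TEAD peak, and so bears on these strengths. Within the 220 regions with TEAD in all 3, the medians were 9.25, 6.79 and 5.54. The 2168 regions of the class with TEAD and Myc that had TEAD in all 3 gave 14.2, 10.2 and 7.66, in the same order. Fold enrichment was higher in tet-Myc/YAP than in tet-Myc in 311 of 401 regions with both peaks (77.6%, 73.2 to 81.4), which was near the 77.9% of regions with TEAD and Myc.

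A few regions stood far above these medians. At chr7:107622511-107624090 the TEAD peak had 56.4-fold enrichment in tet-Myc/YAP, 30.2-fold in tet-Myc and 19.4-fold in tet-YAP, while the wild-type list had no TEAD peak there. At chr2:50192726-50195301 TEAD was at 56.3-fold in tet-Myc/YAP, 23.3-fold in tet-Myc and 5.86-fold in tet-YAP, and at chr4:135549180-135552513 at 29.7-, 15.8- and 17.1-fold. Both had Myc below 10-fold in tet-Myc and tet-Myc/YAP, and the region on chromosome 7 had 12.3- and 15.5-fold. The highest TEAD fold enrichment in any region with wild-type TEAD and Myc was 88.6 in tet-Myc/YAP.

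**Figure D2:**
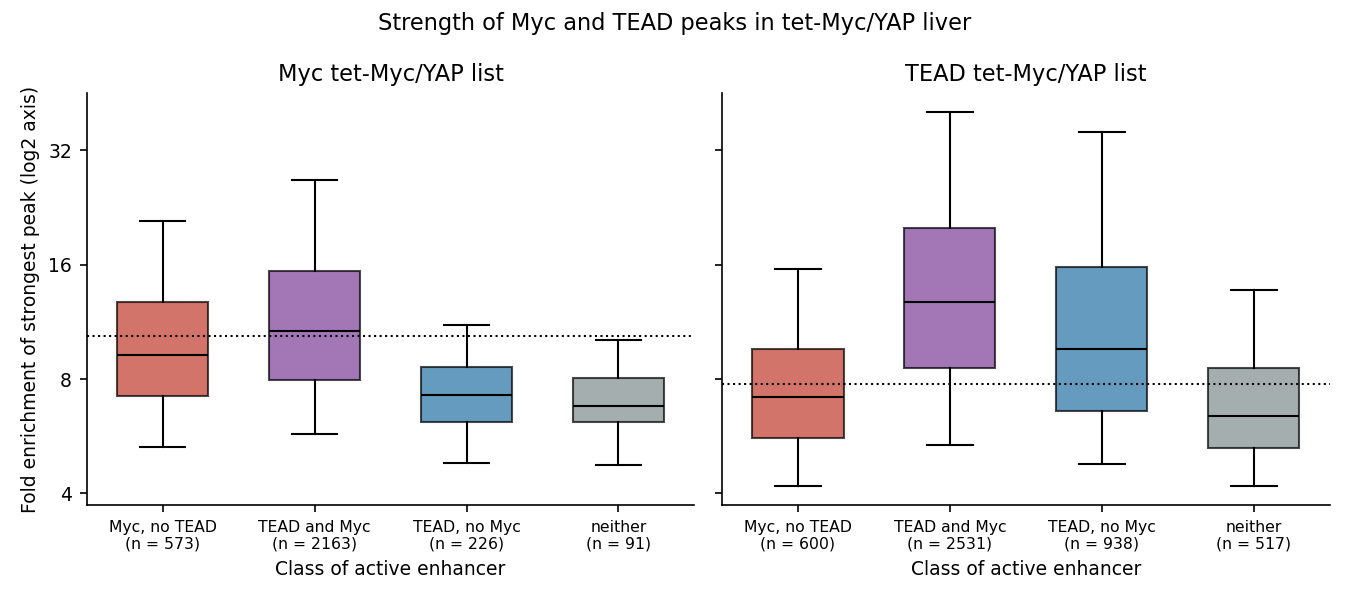
Fold enrichment over control (y axis, log2 axis) of the strongest Myc peak (left) and the strongest TEAD peak (right) of each region in tet-Myc/YAP liver, by class of active enhancer (x axis). Boxes span the quartiles with the median, whiskers the 5th to 95th percentile, and the dotted line is the median of all peaks of the list. For the Myc enhancers without wild-type TEAD, the medians were 9.25 (Myc) and 7.19 (TEAD), against 10.7 and 12.8 in the regions with TEAD and Myc.

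**Figure D3:**
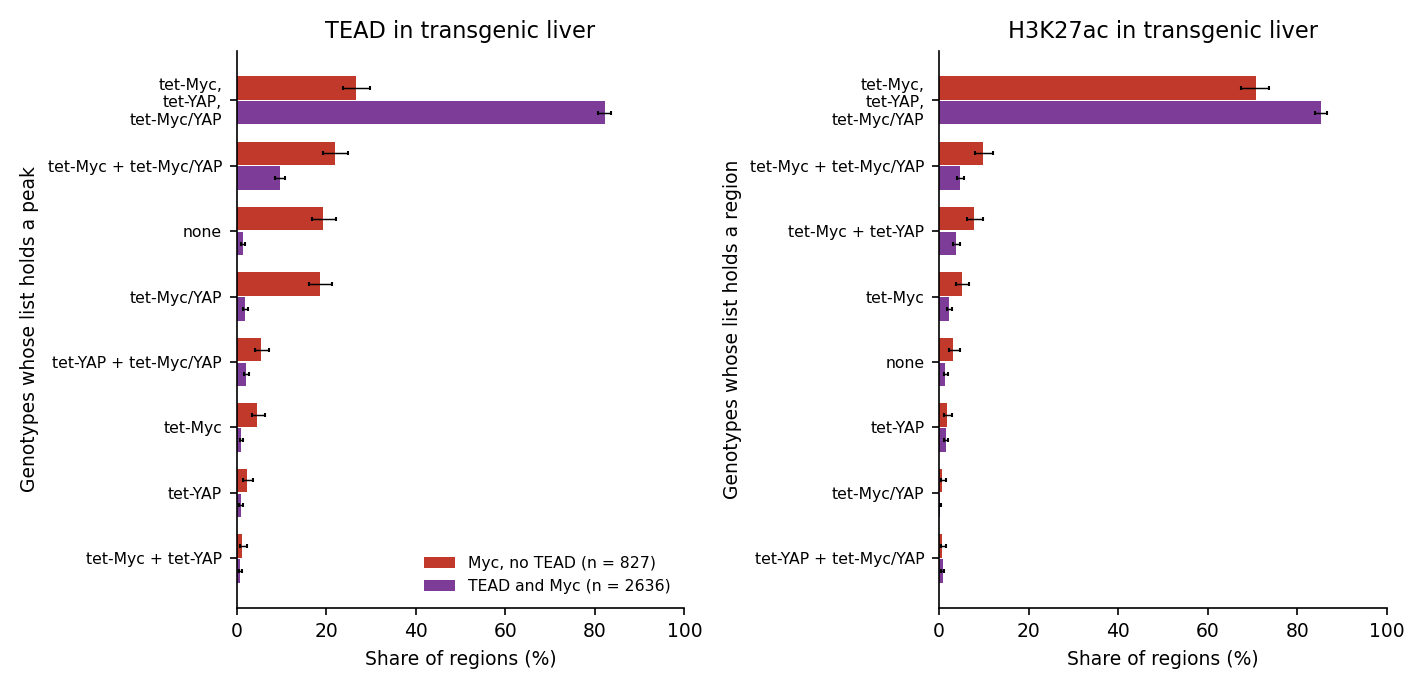
Share of regions (%, x axis) by the combination of transgenic genotypes whose list held a TEAD peak (left) or an H3K27ac region (right), for Myc enhancers without (red) and with (purple) wild-type TEAD. Error bars are Wilson 95% intervals over regions. TEAD in all 3 genotypes was found in 26.6% and 82.2% of the regions, and H3K27ac in all 3 in 70.7% and 85.3%.

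In most regions with a TEAD peak the nearest TEAD summit lay within 250 bp of the Myc summit, and in over 20% of them it did not. Distances were taken from the summit of the strongest tet-Myc Myc peak of each region to the nearest summit of another list, in the regions that overlapped a peak of that list. The tet-Myc/YAP Myc summit was within 250 bp in 532 of 573 regions (92.8%), at a median of 53 bp. The TEAD summit was within 250 bp in 316 of 449 regions in tet-Myc (70.4%, median 128 bp), 453 of 600 in tet-Myc/YAP (75.5%, median 123 bp) and 214 of 294 in tet-YAP (72.8%, median 127 bp). Regions with TEAD and Myc gave 72.9%, 76.8% and 72.8%, and their wild-type TEAD summits 71.1%, so that the spacing was alike in both classes.

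Counted over all regions, there were 49.7 tet-Myc/YAP TEAD summits per 100 of the Myc enhancers without wild-type TEAD in the 400 bp centred on the Myc summit, and 4.23 in the 1000 bp that lay 1500 to 2000 bp from it on both sides together. For tet-YAP, where the Myc transgene was absent, the numbers were 23.7 and 1.21. That liver was not free of Myc peaks, as its Myc list had 10.5 summits per 100 regions in the same 400 bp.

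**Figure D4:**
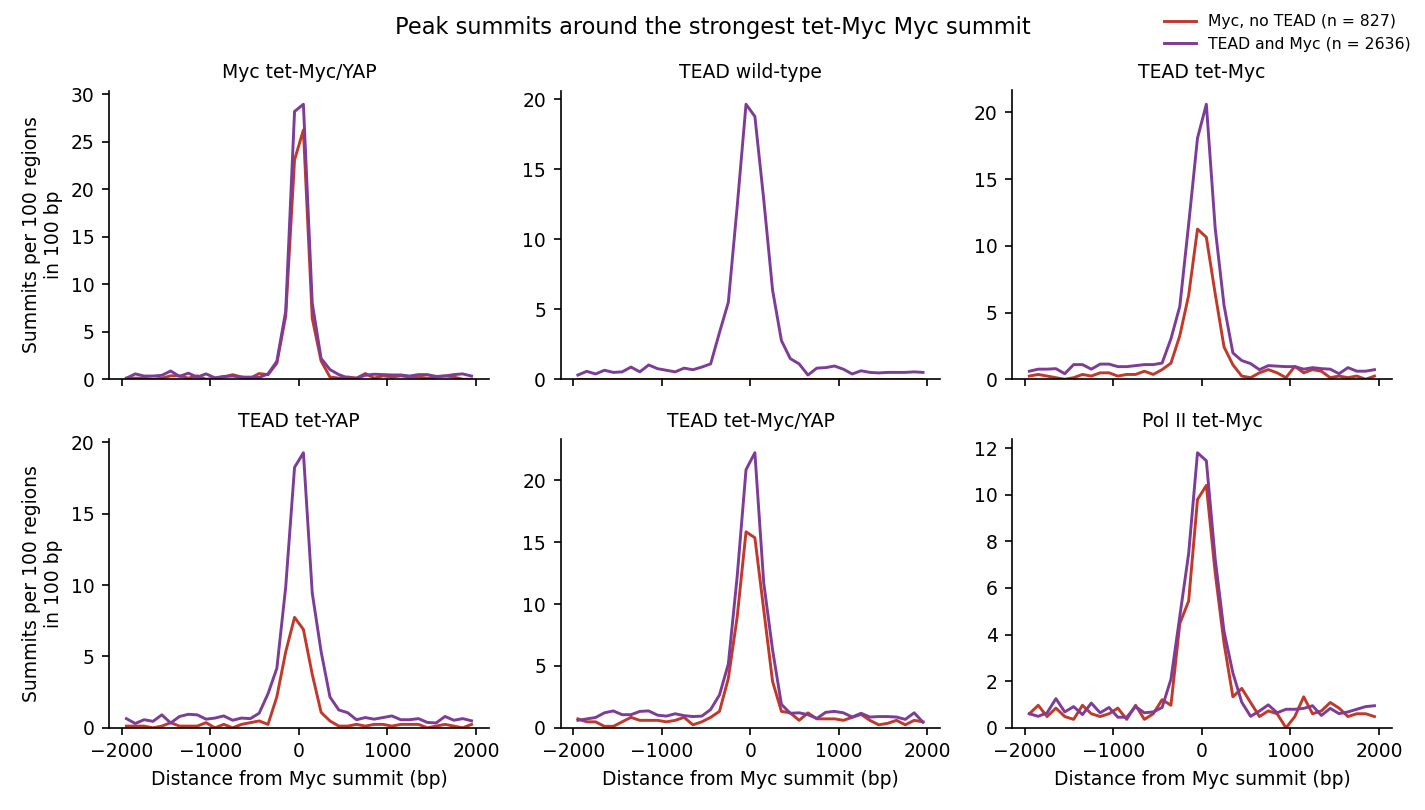
Peak summits per 100 regions in bins of 100 bp (y axis) by distance in bp from the strongest tet-Myc Myc summit (x axis), for 6 lists, in Myc enhancers without (red, n = 827) and with (purple, n = 2636) wild-type TEAD. Each list peaked at the Myc summit in both classes, except that wild-type TEAD was at 0 in the red class by the rule that chose it.

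YAP was rare in these regions. In tet-Myc/YAP liver 54 had a YAP peak (6.53%, 5.04 to 8.42), against a background of 20.3% of active enhancers, 37.7% (35.8 to 39.5) of the regions with TEAD and Myc and 11.9% (10.2 to 13.9) of those with TEAD and no Myc. The regions with neither factor, which also lacked wild-type TEAD, were lower still, at 1.83% (1.23 to 2.7). Weighted to the members' tet-Myc Myc strength, the share of regions with TEAD and Myc was 34.8%. In tet-YAP liver 1 of the 827 had a YAP peak (0.121%), against a background of 2.08%, in the list with the short estimated fragment. When the tet-Myc/YAP list was shortened to the 1328 peaks of the tet-YAP list, none of the 827 remained, which allows a share of up to 0.363% over regions. Few regions of the other classes remained either, at 2.28% of those with TEAD and Myc and 0.076% of those with neither factor.

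Of the 54 regions with YAP, 43 also had both Myc and TEAD in tet-Myc/YAP liver. YAP was in 9.21% (6.91 to 12.2) of the 467 regions with both peaks, 4.72% of the 106 with Myc only, 3.01% of the 133 with TEAD only and 1.65% of the 121 with neither. In the regions with TEAD and Myc in the rule, YAP was in 43.0% (40.9 to 45.1) of the 2123 with both peaks in tet-Myc/YAP. The YAP peaks had medians of 6.21- and 6.53-fold in the classes without and with TEAD. A −log10 q of 10 was reached by 12 of the 54 (22.2%), against 433 of 993 (43.6%) in the regions with TEAD and Myc.

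The leading YAP peak lay in chr1:84866662-84879772, at 8.87-fold, a region with tet-Myc Myc at 4.66-fold, no Myc in tet-Myc/YAP and TEAD at 18.2-fold there. In chr2:132420534-132425740 YAP was at 8.61-fold and Myc at 8.8-fold in tet-Myc/YAP, with no TEAD peak in that genotype. In chr1:71275548-71278812 YAP was at 8.45-fold with Myc at 15.1-fold and TEAD at 10.2-fold. The 3 leading YAP regions therefore differed in which of Myc and TEAD was listed beside YAP.

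Pol II was listed in more of these regions in tet-Myc liver than in the other genotypes. A Pol II peak was present in 455 in tet-Myc (55.0%, 51.6 to 58.4), in 294 in tet-Myc/YAP (35.6%, 32.4 to 38.9), in 205 in tet-YAP (24.8%, 22.0 to 27.8) and in 141 in wild-type (17.0%, 14.6 to 19.8). The background over active enhancers was 46.6%, 34.3%, 27.4% and 18.3%. Regions with TEAD and Myc had 63.8%, 49.2%, 36.8% and 25.7%, and regions with neither factor had 23.7%, 15.8%, 15.9% and 9.35%. Regions with TEAD and no Myc had 27.7%, 20.5%, 20.9% and 12.7%. With the full lists, tet-Myc was thus highest in every class, also in those without a tet-Myc Myc peak. Depth moved with the shares of the Myc enhancers without wild-type TEAD, since the libraries had 50.6, 45.8, 37.7 and 20.9 M tags in that order.

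With each Pol II list shortened to the 39181 peaks of the wild-type list, the shares were 40.3% in tet-Myc, 27% in tet-Myc/YAP and 20.0% in tet-YAP, against 17.0% in wild-type. The same lists gave 12.5%, 10.8% and 13.0% for the regions with neither factor, against 9.35% in wild-type, and 49.6%, 40.1% and 31.8% for the regions with TEAD and Myc, against 25.7%. Tet-Myc thus had the highest share in both classes with tet-Myc Myc. Myc in tet-Myc liver chose both classes, and the tet-Myc Pol II list came from the same genotype. The part of that choice was not tested, and the part of depth was not tested further. The regions with TEAD and no Myc were not compared at equal length.

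Of the 827 regions, 507 had Pol II in at least 1 genotype (61.3%, against a background of 54.0%) and 102 in all 4 (12.3%, background 13.0%). It was in tet-Myc only in 152 (18.4%) and in none in 320 (38.7%), against 14.2% and 29.0% of the regions with TEAD and Myc. The Pol II summit was within 250 bp of the Myc summit in 67 of 141 regions in wild-type (47.5%), 311 of 455 in tet-Myc (68.4%) and 191 of 294 in tet-Myc/YAP (65.0%). The values in the regions with TEAD and Myc were 50.5%, 67.6% and 65.8%. Pol II in tet-Myc was in 60.6% (56.0 to 65.0) of the regions with a tet-Myc TEAD peak and in 48.4% (43.4 to 53.4) of those without one. The same split of the regions with TEAD and Myc gave 64.6% and 51.2%. In tet-Myc/YAP, Pol II was in 44.5% of the regions with both Myc and TEAD peaks, 24.5% of those with Myc only, 27.8% of those with TEAD only and 19.0% of those with neither. The class with TEAD and Myc in the rule gave 55.9%, 32.5%, 22.1% and 10.8%. In both classes the share was thus highest where both peaks were listed.

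H3K27ac was kept in most regions. It was listed in tet-Myc liver in 774 (93.6%, 91.7 to 95.1, background 86.3%), in tet-Myc/YAP in 679 (82.1%, 79.3 to 84.6, background 77.2%) and in tet-YAP in 671 (81.1%, 78.3 to 83.7, background 83.6%). It was in all 3 transgenic livers in 585 (70.7%, 67.5 to 73.7), near the background of 68.5%, and below the 85.3% of regions with TEAD and Myc. Regions with TEAD and no Myc had it in 76.8% in tet-Myc, 67.8% (65.1 to 70.4) in tet-Myc/YAP and 81.8% in tet-YAP. The Myc enhancers without wild-type TEAD thus lay above them in tet-Myc and in tet-Myc/YAP, and the intervals of these classes overlapped in tet-YAP. Myc in tet-Myc liver chose the regions, and the tet-Myc H3K27ac list came from other libraries of the same genotype.

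H3K27ac was in none of the 3 in 26 regions (3.14%, 2.15 to 4.57), against a background of 5.71% and 14.1% of the regions with neither factor. By Myc strength these were led by chr8:93750837-93752202, chr5:32748291-32749968 and chr3:60123842-60128687, with Myc at 16.9-, 13.1- and 10.4-fold in tet-Myc and 20.6-, 19.0- and 7.09-fold in tet-Myc/YAP. Myc was thus listed in both genotypes in these regions without a listed H3K27ac region in either.

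The widest region, chr13:115116315-115163481, spanned 47167 bp and was covered by wild-type H3K27ac over only 9.99% of its length. The next were chr15:27880908-27917901 and chr10:74550151-74586849, of 36994 and 36699 bp, with 23.5% and 54.1% covered. In the first 2, H3K27ac thus lay over less than 25% of the region.

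H3K4me3, which no region had in wild-type by the rule, was listed in at least 1 transgenic liver in 75 (9.07%, 7.3 to 11.2), against a background of 10% and 16.1% of the regions with TEAD and Myc. It was present in 46 in tet-Myc (5.56%, 4.2 to 7.34, background 5.07%), 60 in tet-Myc/YAP (7.26%, 5.68 to 9.23, background 8.46%) and 3 in tet-YAP (0.363%, background 1.02%). Regions with neither factor had 1.67% and 2.13% in tet-Myc and tet-Myc/YAP. Of the 75, 31 had it in tet-Myc and tet-Myc/YAP (3.75% of the 827), 27 in tet-Myc/YAP only (3.26%) and 14 in tet-Myc only (1.69%). The regions with TEAD and Myc had 5.84%, 7.06% and 1.86%.

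Within tet-Myc, H3K4me3 was in 36 of the 455 regions with Pol II (7.91%, 5.77 to 10.8) and in 10 of the 372 without (2.69%, 1.47 to 4.88). It was in 5.57% and 5.56% of the regions with and without a TEAD peak. The regions with TEAD and Myc had 10.9% with Pol II and 3.25% without, so the difference by Pol II was in both classes. By tet-Myc TEAD peak they had 8.5% (7.47 to 9.67) with one and 3.01% (1.29 to 6.86, 5 of 166) without, unlike the Myc enhancers without wild-type TEAD. Of the latter, a single region, chr7:3248370-3250568, had H3K4me3 in all 3 transgenic livers, where the background was 0.285%. It held Myc at 16.7-, 14.0- and 5.73-fold in tet-Myc, tet-Myc/YAP and tet-YAP, TEAD at 6.87-, 10.8- and 4.88-fold, and Pol II at 10.1-, 7.06- and 5.15-fold, with no Pol II peak in wild-type. Its nearest wild-type H3K4me3 region was 16097 bp away.

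The readouts also varied with the strength of the Myc peak that chose the regions, and this is given as a description. In 4 groups of increasing tet-Myc Myc fold enrichment, Myc in tet-Myc/YAP was in 50%, 52.6%, 76.2% and 97.6% of regions, and Myc in tet-YAP in 4.04%, 8.92%, 9.71% and 27.1%. TEAD was in 46.0%, 48.8%, 54.4% and 67.6% in tet-Myc, 66.2%, 64.8%, 74.8% and 84.3% in tet-Myc/YAP, and 30.8%, 33.3%, 34.5% and 43.3% in tet-YAP.

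Pol II in tet-Myc was in 47.5% (40.6 to 54.4), 50.7%, 53.9% and 67.6% (61.0 to 73.6) of the 4 groups. Pol II in tet-Myc/YAP did not rise steadily, at 36.9%, 32.4%, 28.6% and 44.3%. The shares were 23.7%, 23.9%, 24.3% and 27.1% in tet-YAP, and 19.7%, 14.1%, 15.0% and 19.5% in wild-type. YAP in tet-Myc/YAP was in 2.53% (1.08 to 5.77) of the weakest group and 11.9% (8.19 to 17.0) of the strongest. H3K27ac in all 3 transgenic livers was in 67.2%, 65.7%, 66.5% and 83.3%. The median width of the regions was 4355, 4241, 4366 and 4590 bp, so that width differed little between the groups.

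**Figure D5:**
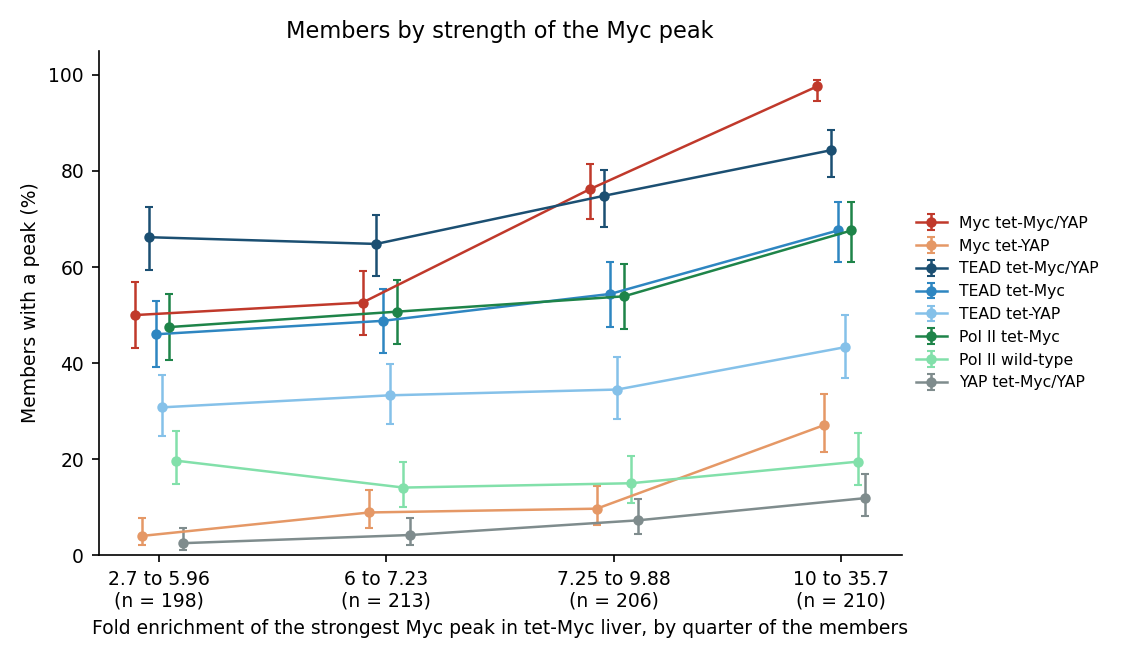
Share of the Myc enhancers without wild-type TEAD with a peak (%, y axis) in 8 lists, in 4 groups by fold enrichment of the strongest tet-Myc Myc peak (x axis, fold range and number of regions). Points are shares and bars Wilson 95% intervals over regions. From the weakest to the strongest group, Myc in tet-Myc/YAP went from 50% to 97.6% and Pol II in tet-Myc from 47.5% to 67.6%. Pol II in wild-type stood at 19.7%, 14.1%, 15.0% and 19.5%.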

How the data were processed

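ChIP-seq peak lists of mouse liver were used for 23 of 24 samples. The input sample was not analysed here. The submitters' processing notes name BWA 0.6.2, SAMtools and MACS2 2.0.9, and the mm9 build. The 14 narrow lists (Myc, TEAD, YAP, Pol II) were called by the authors for each library on its own at a p-value cutoff of 1.00e-05, per the file headers. They give, as deposited, −log10 p and q values, the fold enrichment as a ratio over control, and the pileup signal. The 9 broad lists (H3K4me1, H3K4me3, H3K27ac) were deposited by the authors with a score of unstated scale, used for ranks only. The sources used here give neither their depth nor their cutoffs. YAP chromatin was fixed with DSG and formaldehyde, other chromatin with formaldehyde alone, and the control of the tet-Myc/YAP YAP list had 167.0 M tags against 17.4 M in ChIP.

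Overlap meant at least 1 shared bp (Python 3.11.15, numpy 2.4.6, pandas 2.3.3), tested on simulated data and against bedtools 2.31.1. The strongest peak of a region had the highest −log10 q. Shares carry Wilson 95% intervals (scipy 1.17.1), which cover counting error only, and neighbouring regions are not independent. The upper limit for 0 regions was set at 3 counts. With 1 library per group no p-value was made. Classes were also weighted to the members' distribution over 4 classes of width or Myc fold enrichment. Alternatives were a −log10 q of at least 10, the summit inside the region, stricter gaps to TEAD and H3K4me3, more H3K27ac cover and lists of equal length. Depth limits weak peaks: narrow libraries had 16.9 to 50.6 M tags. Members, lists and comparisons were chosen with earlier results of these data known. Regions named were those leading by −log10 q in tet-Myc/YAP Myc, YAP or TEAD, or in tet-Myc Myc among members without tet-Myc/YAP Myc, with wild-type Myc or without transgenic H3K27ac, plus the widest and any with H3K4me3 in all 3 transgenic livers. Gene names and sequences are not given, since neither annotation nor genome of mm9 was used. Figures used matplotlib 3.10.9.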

Additional observations from a re-analysis of the deposited data

How the results depend on the processing

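Of 76 shares and medians recomputed under alternatives, 18 could not change, because the setting left the regions and the list as they were. These include all 13 with no TEAD within 1000 bp, since every region already met that limit. Of the other 58, 45 stayed within the interval of the value reported (for the median, the middle range) and 13 did not. The 45 include all that could change with the summit required inside the region, with no H3K4me3 within 2000 bp (821 regions) or with at least 50% H3K27ac cover (798 regions). With a −log10 q of at least 10 in all narrow lists, 1138 regions met the rule in place of 827. Of the 827, 615 had a tet-Myc Myc peak at that level. The rest of the 1138 overlapped a weaker wild-type TEAD peak, and so came from the class with TEAD and Myc. Values under this setting are thus for a partly different set. Among the 1138, Myc in tet-YAP stood at 6.85%, YAP in tet-Myc/YAP at 4.04%, Pol II at 11.1% in wild-type and 21.5% in tet-YAP, and H3K27ac in all 3 transgenic livers at 77.9%. With Myc, TEAD and YAP lists shortened to the shortest transgenic list of each antibody, Myc in tet-Myc/YAP stood at 22.0% with a median fold enrichment of 15.4, TEAD at 34.7% in tet-Myc and 41.4% in tet-Myc/YAP, and YAP in tet-Myc/YAP at 0.0%. With Pol II lists shortened to the wild-type length, an alternative chosen after seeing the data, Pol II stood at 40.3% in tet-Myc, 27% in tet-Myc/YAP and 20.0% in tet-YAP. Fewer peaks enter by construction in each shortened list.

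The order of classes was compared 57 times, over 10 Myc, TEAD, YAP and Pol II lists as reported and under 6 of these settings, leaving out lists that a setting did not shorten. The regions with TEAD and Myc had the higher share 57 times, and the Myc enhancers without wild-type TEAD stood above the regions with neither factor 56 times, the exception being YAP in the shortened tet-Myc/YAP list (0.0% and 0.076%). These comparisons are not independent, since several settings kept nearly the same regions. The rule also bears on the order, as it chose the classes by wild-type TEAD and tet-Myc Myc. The counts are therefore not separate support for the TEAD and Myc lists. No paired analysis was possible because each antibody and genotype had 1 library and no result came from a test. Depth and cutoffs of the broad lists are unknown, and a region missing from them was not detectable under the cutoffs used.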

Other observations

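The Myc enhancers without wild-type TEAD lay on all 20 chromosomes that held active enhancers. Their share of the active enhancers of a chromosome was 9.94% to 17.6% on the autosomes, with the lowest on chromosome 3 (33 of 332) and the highest among autosomes on chromosome 5 (61 of 347). On chromosome X it was 12 of 48 (25%, 14.9 to 38.8). Neighbouring regions on a chromosome were a median of 1230404 bp apart, and 73 of 807 neighbouring pairs were less than 50000 bp apart.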
